A study of Mus musculus with 8 samples.

Results

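Tail-to-tail gene pairs are neighbours on opposite strands whose 3′ ends run into each other, so that exons of both genes cover the same bases. Pairs were taken by position alone from the gene table, leaving out the mitochondrial chromosome. The genes lie on opposite strands and share at least 50 exon bases, and the plus-strand gene starts before the minus-strand gene and ends inside it. The shared bases were not required to lie in the last exon of either gene. The rule found 1350 such pairs among 4577 opposite-strand pairs with that much shared exon, the rest being 1485 head-to-head and 1742 nested pairs. The pairs hold 2677 of the 54146 rows of the table, and the 1668 of them that averaged 5 or more counts over the 8 libraries are described here. That mean was reached by 8382 rows over the whole genome. The described rows belong to 1016 pairs, of which 670 have both rows above that mean and 346 have only 1.

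RNA was measured in ID8 cells, a mouse ovarian surface epithelial cancer line, in a form labelled as resistant to olaparib that all groups share. The cells were exposed for 72 h to olaparib (an inhibitor of the PARP enzymes that act at DNA breaks), to EZM8266 (an inhibitor of the histone methyltransferases EHMT1 and EHMT2), to both compounds together (the combination), or to DMSO, the solvent control. Each of the 4 groups has 2 libraries. For combination replicate 2 the label spells the compound EZM8267, and its title placed it with the combination. Nothing in the labels makes the replicates separate cultures, so a p-value here reflects differences among libraries that could be technical. The sample numbers in the labels form separate blocks for libraries with and without EZM8266, so a block effect cannot be told apart from EZM8266.

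RNA polymerase II transcribes past the cleavage site of a gene before it is released, and cleavage itself follows a short signal, usually AAUAAA, shortly before the end of the message. Where genes converge, the ends of both messages can be complementary, and such overlaps have been studied as a source of natural antisense RNA, of double-stranded RNA and of collisions between polymerases. EHMT1 and EHMT2 place the repressive dimethyl mark on lysine 9 of histone H3, and loss of that mark is known for releasing silent repeats and interferon-linked genes in cancer cells.

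The strand on which fragments were counted decides what each row means. The submitters counted with strand setting 1, and the library kit keeps the first read on the strand opposite to the transcript, so a row holds the fragments lying on the strand opposite to the gene it is named for. In a tail-to-tail pair that strand belongs to the partner. The row named Csf1r, a macrophage receptor that shares 871 exon bases with Hmgxb3, an HMG-box protein gene, held 88 to 134 counts per library, and these lie on the strand of Hmgxb3. The Hmgxb3 row, on the strand of Csf1r, held 0 to 9 counts. Below, a row keeps its own symbol and is followed by the gene whose strand it was counted on. A count in such a row can come from the partner's message, from read-through beyond its annotated end or from unannotated RNA of the same strand, and these were not separated.

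The gene ends that meet can be read directly. The last 30 bases of the annotated message are shown for the pairs on which the later results turn, Prmt7 with Smpd3, Fam117b with Ica1l and Tmem140 with Cyren, and for Vcl with Ap3m1, one of the pairs with the most counts. They run 5′ to 3′ on each gene's own strand and come from the GENCODE M21 transcripts of build mm10, with the signal AATAAA or its variant ATTAAA in capitals where it is present.
Prmt7 (chr8:106252765-106252794, plus): cagaaaaaaaatacagaaATTAAAaaagtt
Smpd3 (chr8:106252548-106252577, minus): aggagaaAATAAAcccgtgaggaggctcaa
Fam117b (chr1:59985317-59985346, plus): cctatgttcaAATAAAgtctgttgttcttg
Ica1l (chr1:59982490-59982519, minus): ggctcactgactgttaaagcaacctgtctt
Tmem140 (chr6:34874917-34874946, plus): ggaacagcagagtagaaggagaaaggatcg
Cyren (chr6:34871771-34871800, minus): ttcccctatgtgattatatgtctttaaagc
Vcl (chr14:21033647-21033676, plus): taaaacAATAAAgtacatttatatgaataa
Ap3m1 (chr14:21031442-21031471, minus): aacagcaatgtttatacaatttggcttgta

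Both ends of the Prmt7 and Smpd3 pair carry a signal. Neither end of the Tmem140 and Cyren pair carries AATAAA or ATTAAA in the last 40 bases, which says only that these letters are not in that window. The search covered the last 40 bases of the message on the sense strand, for the transcript that reaches the annotated gene end. AATAAA was found in 49.6% of the 2637 tail-to-tail genes with such a transcript and in 30.6% of the 53296 genes of the table with one. Among protein-coding genes the share was 55.7% in tail-to-tail pairs and 57.5% outside them. Counting either signal, the shares were 68.8% and 69.8%. Many of the noncoding partners lack the signal, and the coding genes of the pairs carry it about as often as other coding genes.

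The shared stretch was usually short, and its distance from the gene ends was not measured. Its median length was 376.5 bases over the 1350 pairs, with quartiles of 170 and 820 bases and a longest value of 4652. The overlap was 1 unbroken exon stretch in 860 pairs (63.7%). Both genes were protein coding in 713 pairs (52.8%), 1 of them in 525 pairs and neither in 112 pairs. Of the 713 coding pairs, 286 (40.1%) had no coding base of either gene in the overlap, and 30.01% of their 471282 shared bases were coding in at least 1 gene. Among the 1668 rows, the shared bases made up a median of 11.8% of the exon length of the row, and at least 50% in 128 rows. The row was named for a protein-coding gene in 1311 cases and for an antisense transcript in 226, and the partner was protein coding in 1430.

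Rows with longer overlaps held more counts. Levels are first given in CPM, the count of a row relative to the total count of its library. The median over rows was 17.6 CPM in the 179 rows with under 100 shared bases and 36.05 CPM in the 457 rows with 100 up to 300. It was 54.1 CPM in the 657 rows from 300 up to 1000 shared bases, 75.8 CPM in the 269 rows from 1000 up to 2000 and 132 CPM in the 106 rows with 2000 or more. Across the 1668 rows, Spearman's rho of mean CPM was 0.24 with the shared bases, -0.03 with the exon length of the row and -0.09 with the exon bases outside the overlap. These rows share libraries and depth, and genes are not independent replicates, so the values are a description.

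**Figure D1:**
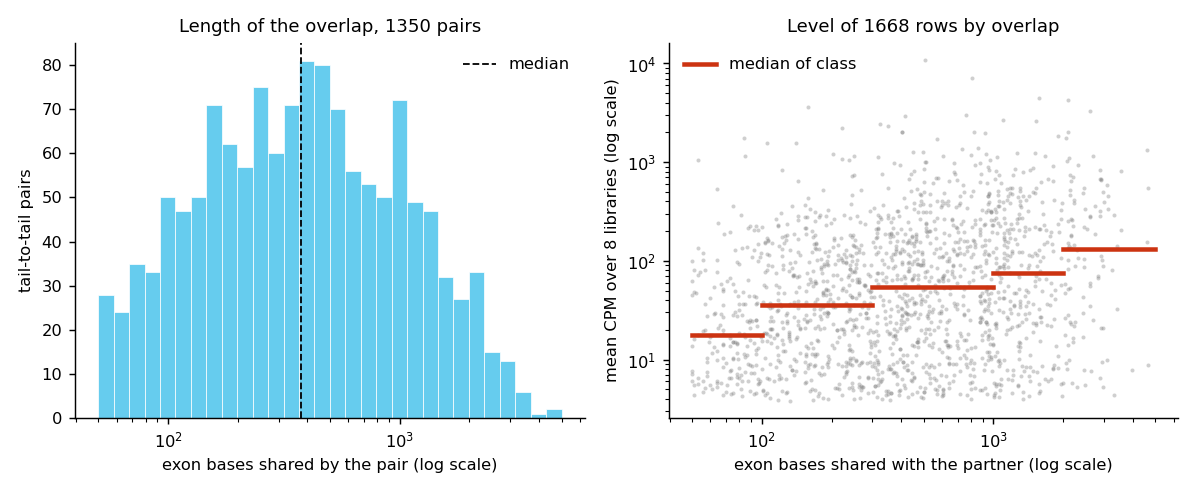
Left, the number of tail-to-tail pairs by exon bases shared (log scale), with the median of 376.5 bases dashed. Right, the mean CPM over 8 libraries (log scale) of each of the 1668 rows against the bases shared with its partner (log scale), with the median of each length class in red, from 17.6 CPM below 100 bases to 132 CPM at 2000 bases or more.

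The 8 libraries held 19743299 to 30329847 fragments, of which 4.54% to 5.399% were assigned to a row, and the row totals were 973382 to 1680974 counts. Tail-to-tail rows took 24.3% and 29.3% of those counts in the olaparib libraries, 28.4% and 32.1% in the EZM8266 libraries, 26.2% and 30.1% in the combination libraries and 27.8% and 26.1% in the DMSO libraries. The Wilson 95% interval ran from 24.2% to 24.3% for the lowest share and from 32.01% to 32.2% for the highest, which covers counting error only. The olaparib and combination libraries overlap DMSO in this share, and both EZM8266 libraries lie above both DMSO libraries. Of the 100 rows with the most counts, 44 were tail-to-tail rows. As a measure of fragments on the unexpected strand, the Rmrp row held 1.04% to 1.68% of the counts of the Rmrp and Ccdc107 rows together, which overlap on opposite strands. Marker genes can be read well only where a row lies on their strand, and the row on the strand of Krt8, a keratin of simple epithelia, held 196 to 362 counts. In their own rows, where only fragments on the unexpected strand show the gene itself, the keratin gene Krt18 held 10 to 40 counts and the epithelial gene Epcam 0 to 1. Of the other epithelial and mesothelial markers, Wt1 held 13 to 58, Krt19 14 to 53, Pax8 3 to 47 and Krt8 6 to 23 in their own rows. Msln held 2 to 9, Upk3b 0 to 7, Muc16 0 to 6, and Krt7 and Lrrn4 0 to 1. The rows on the strands of the epithelial genes Krt7 and Pax8 held 0 to 2. Of 11 immune markers, all but Csf1r held 0 to 6 counts in their own rows, with Adgre1, Itgam and Cd3e at 0, and the rows on the strand of the T cell receptor gene Trdc held 0 to 60. The 10 endothelial and fibroblast markers held 0 to 4. What other cells add to any result was not tested. In such bulk RNA, fewer cells of a kind and less RNA per cell cannot be told apart. Of the 1668 rows, 1496 passed the filter on low counts and were tested, with a median of 70.7 counts against 24 over all 6379 rows tested.

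Among the rows with the most counts were rows on the strand of ribosomal, RNA-binding and adhesion protein genes. From here on, values per library are TMM-scaled CPM, relative to the scaled total of the tested rows. The Tlcd1 row, on the strand of the ribosomal protein gene Rpl23a, held 11296 and 11728 CPM in the olaparib libraries, 10422 and 12092 in the EZM8266 libraries, 11400 and 10497 in the combination libraries and 11964 and 10213 in the DMSO libraries. It also lies over the small nucleolar RNAs Snord42a and Snord4a on that strand. The Phykpl row, on the strand of the RNA-binding protein gene Hnrnpab, held 7524 and 7084 CPM in the olaparib, 7278 and 7270 in the EZM8266, 7336 and 6643 in the combination and 7117 and 7864 in the DMSO libraries. In both rows all 4 groups overlap. The Ap3m1 row (strand of Vcl, the adhesion protein vinculin) averaged 5162 counts and the Map3k12 row (strand of Pcbp2, an RNA-binding protein) 5388. The Map3k12 row also shares 159 exon bases with Gm10337.

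Per kilobase of row exon, on the unscaled CPM of the library totals, the order was different. The Gm37401 row, on the strand of the small GTPase gene Rhoa, had 7097 CPM per kb and shares 93.4% of its exon with Rhoa. The Gm15884 row (strand of the prohibitin gene Phb2) had 2424 CPM per kb and the Gm43126 row (strand of the cyclin gene Ccnd2) 2276. The Tlcd1 row stood at 2179 CPM per kb. Among all 1668 rows the median was 12.6 CPM per kb.

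In most pairs the rows were far from equal. Over the 670 pairs with both rows described, the higher row held a median of 7.19 times the counts of the lower, with quartiles of 2.61 and 21.4, and 8.19 times per kilobase of exon. The ratio of counts was at least 10 in 279 pairs and under 2 in 125. The plus-gene row was the higher in 348 pairs and the minus-gene row in 321. In 69 pairs the lower row held under 2% of the pair, a share near the 1.04% to 1.68% of the Rmrp measure, so fragments on the unexpected strand could make up such rows and this was not tested. The Vcl row (strand of Ap3m1) held 35.3 and 21.1 CPM in the olaparib, 37.8 and 29.8 in the EZM8266, 25.2 and 25.3 in the combination and 24.5 and 32.7 in the DMSO libraries, against 3925 to 4641 CPM in the Ap3m1 row over the libraries.

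The pairs with the longest overlaps showed the same inequality. Pstk and Ikzf5 (a tRNA-dependent kinase of selenocysteine synthesis and an Ikaros-family zinc finger) share 4652 exon bases at chr7:131389189-131393937, of which 1202 are coding in at least 1 gene. The Pstk row averaged 674 counts and the Ikzf5 row 10.6. Mrps25 and Nr2c2 (a mitochondrial ribosomal protein and a nuclear receptor) share 4590 bases at chr6:92169525-92174294 with no coding base, and averaged 1600.0 counts in the Mrps25 row (strand of Nr2c2) and 188 in the Nr2c2 row (strand of Mrps25). In none of the named rows of these pairs did a treatment pass the test against DMSO.

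Both rows of 536 tail-to-tail pairs were tested, and the same row was the higher in all 8 libraries in 471 of them, most pairs having a wide gap between their rows in DMSO as well. The balance, the log2 CPM of the plus-gene row minus that of the minus-gene row, had a median SD of 0.34 over the 8 libraries. Within a pair the log2 fold changes of the rows were weakly correlated, with Pearson's r over 536 pairs of 0.03 for olaparib, 0.08 for EZM8266 and 0.10 for the combination against DMSO. The median SE of a tested tail-to-tail row was 0.22 log2 in each comparison, and the quartiles of the fold changes lay between -0.12 and 0.21. With errors of that size, low r values cannot tell whether partners move together. In the 147 pairs with at least 50 mean counts in both rows, r was -0.08, 0.19 and 0.10 in the same order. The rows of a pair share libraries, and these r values describe pairs and carry no test. The fold changes of the rows had opposite signs in 269, 256 and 270 of the 536 pairs. Both rows lay above 0 in 165, 194 and 153 pairs and below 0 in 102, 86 and 113.

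The pair whose balance changed was Tmem140 and Cyren, a transmembrane protein gene and a regulator of DNA end joining. They share 2168 exon bases at chr6:34872528-34874695, of which 804 are coding in at least 1 gene, and neither row has another opposite-strand partner. The Cyren row (strand of Tmem140) held 157 and 136 CPM in the olaparib, 197 and 252 in the EZM8266, 235 and 227 in the combination and 117 and 123 in the DMSO libraries. The Tmem140 row (strand of Cyren) held 151 and 127 CPM in the olaparib, 138 and 163 in the EZM8266, 126 and 131 in the combination and 139 and 135 in the DMSO libraries. Counts on the Tmem140 strand were thus above DMSO in every library with EZM8266, and counts on the Cyren strand overlapped DMSO with EZM8266 alone and lay just below it with the combination. The balance differed from DMSO by -1.03 ± 0.19 (SE) log2 with the combination, with a limma adjusted p of 0.0306, and by -0.76 ± 0.19 with EZM8266, with an adjusted p of 0.223. This was 1 of 536 tail-to-tail pairs, in a comparison that called 0.0796% of the 1257 overlapping pairs of all arrangements tested. The combination call ended without DMSO replicate 1 (adjusted p 0.973), either olaparib library (0.109 and 0.0964) or either combination library (0.491 and 0.301), at differences of -0.97 to -1.08. Over all 6 comparisons the number of pairs with a changed balance was 15 without EZM8266 replicate 1 and 2 without DMSO replicate 2. limma called 0 tail-to-tail pairs for olaparib and 0 for EZM8266 against DMSO, where 0% of all pairs were called in both. At an unadjusted p under 0.05 7 tail-to-tail pairs passed for olaparib, which is 1.31% of the 536 against 1.03% of all 1257 pairs. For EZM8266 21 passed (3.92% against 3.98%), and for the combination 24 passed (4.48% against 4.53%). DESeq2 was not run on the balance.

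**Figure D2:**
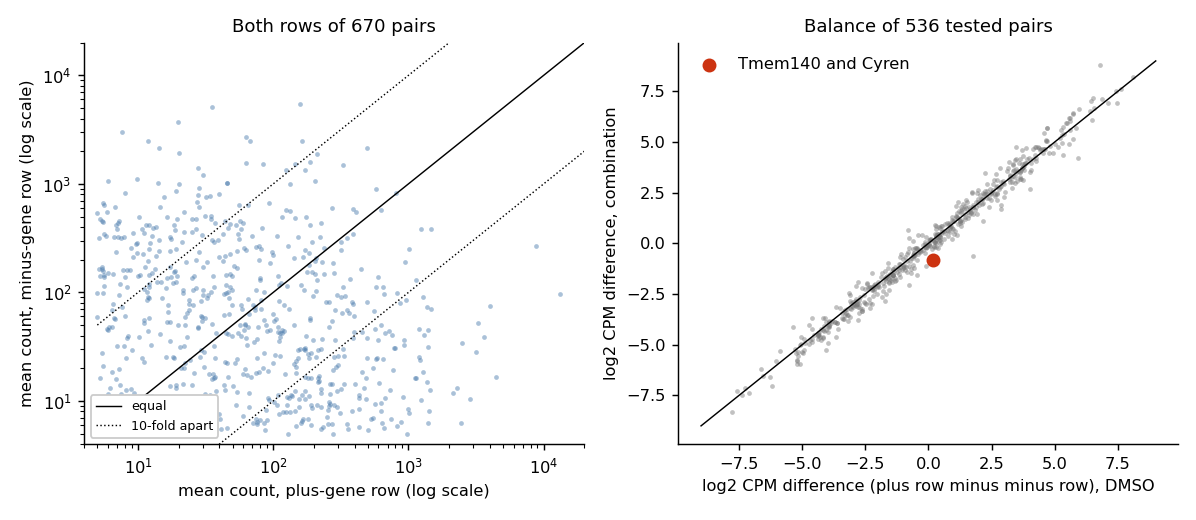
Left, mean counts of the plus-gene row and the minus-gene row (both log scales) for the 670 pairs with both rows described, where the line marks equality and the dotted lines a 10-fold difference, which 279 pairs reach. Right, the log2 CPM difference between the rows of 536 tested pairs, combination mean against DMSO mean, where the line marks equality and the red point is Tmem140 and Cyren, which differs by -1.03.

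Against DMSO, 5 tail-to-tail rows rose with EZM8266, 4 rose with the combination and none fell in either. The 3 treated groups are set against the same DMSO libraries, so their values are given side by side and are not independent of each other. For EZM8266 the edgeR quasi-likelihood test called 5 of 1496 rows, where 0.204% of all 6379 rows were called, 0.188% higher and 0.0157% lower. At an unadjusted p under 0.05 there were 89 tail-to-tail rows, or 5.95% of them, against 5.72% of all rows. For the combination it called 4 rows, where 0.219% of all rows were called, 0.188% higher and 0.0314% lower, and 78 tail-to-tail rows passed at an unadjusted p under 0.05, or 5.21% against 4.89% of all rows. These shares are close to those of the whole table. The count for EZM8266 was 1 when either DMSO library or EZM8266 replicate 2 was left out, 2 without olaparib replicate 1 or either combination library, and 1 in a fit limited to EZM8266 and DMSO, which ended every call but Gm27177 (adjusted p 0.204 to 0.388 for the other 4). The count for the combination was 1 without DMSO replicate 1 or combination replicate 1, and 0 without DMSO replicate 2 or combination replicate 2.

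**Figure D3:**
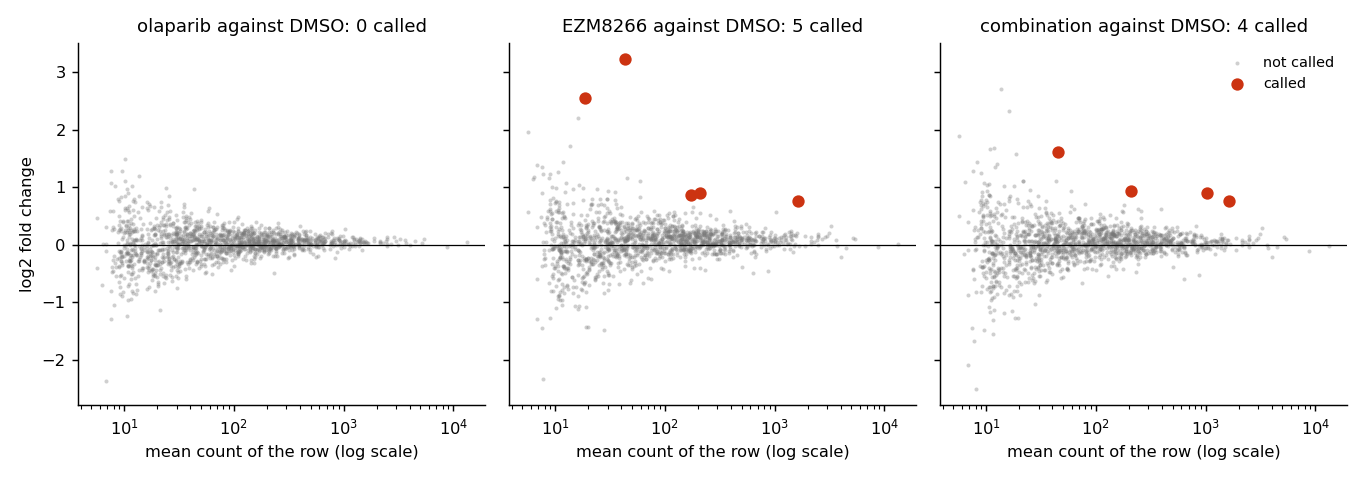
Log2 fold change against DMSO of the 1496 tested tail-to-tail rows by mean count (log scale), with a panel for olaparib, EZM8266 and the combination. Red points are rows called at an adjusted p under 0.05, of which there are 0, 5 and 4, all above 0.

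Of the 4 rows called with the combination, 2 lie on the strand of interferon-linked genes. Rnf213, a giant ubiquitin ligase induced by interferon, shares 1476 exon bases in 11 stretches with A930037H05Rik at chr11:119448788-119479947, of which 1307 are coding in Rnf213. The A930037H05Rik row (strand of Rnf213) held 706 and 825 CPM in the olaparib, 942 and 934 in the EZM8266, 1153 and 1221 in the combination and 643 and 622 in the DMSO libraries. The treated groups lie apart from DMSO, and the combination lies above each single compound. The row rose by 0.91 ± 0.12 log2 (SE) with the combination (adjusted p 0.00338), with 0.57 ± 0.12 for EZM8266 (0.103) and 0.27 ± 0.12 for olaparib (0.999). The call ended without DMSO replicate 2 (0.0567) or combination replicate 2 (0.0649). The Rnf213 row, on the strand of A930037H05Rik, held 34.2 and 40.9 CPM in the combination and 37.2 and 40.8 in the DMSO libraries.

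Sp140, a chromatin reader of PML nuclear bodies, shares 877 exon bases with the antisense gene Gm17017 at chr1:85641733-85643346, of which 444 are coding in Sp140. The Gm17017 row (strand of Sp140) held 18.4 and 34.2 CPM in the olaparib, 43.9 and 49.7 in the EZM8266, 65.5 and 62.4 in the combination and 20.6 and 20.996 in the DMSO libraries. Olaparib overlaps DMSO, and both other groups lie above it. The row rose by 1.61 ± 0.29 log2 with the combination (adjusted p 0.0412), with 1.16 ± 0.29 for EZM8266 (0.278). The call ended without either DMSO library (0.294 and 0.331) or either combination library (0.258 and 0.182).

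Rnf213 and Sp140 are 2 of 11 tested rows on the strand of a gene linked to interferon or double-stranded RNA. Over these 11 rows the median log2 fold change was 0.07 for olaparib, 0.28 for EZM8266 and 0.25 for the combination against DMSO, beside 0.04, 0.07 and 0.03 over all tested tail-to-tail rows and -0.01, -0.02 and -0.02 over all rows tested. With EZM8266, 10 of the 11 rows lay above 0, beside 931 of 1496 tail-to-tail rows and 2080 of the 4883 other rows tested. edgeR called 0 of the 11, where 0.204% of all rows were called, and DESeq2 called 1, where it called 15 over all rows. At an unadjusted p under 0.05, 3 passed, where 5.72% of all rows did. With the combination 9 lay above 0, beside 838 of 1496 and 2158 of 4883. edgeR called 2, where 0.219% of all rows were called, and 4 passed unadjusted, where 4.89% of all rows did. The Chrnb2 row, on the strand of Adar, the enzyme that edits double-stranded RNA, held 261 and 249.5 CPM in the combination and 153 and 179 in the DMSO libraries, a fold change of 0.62 ± 0.14 log2 (adjusted p 0.136). The Gm44148 row, on the strand of Usp18, a protease that removes the interferon-induced modifier ISG15, held 27 and 23 counts in the combination and 1 and 9 in the DMSO libraries, a fold change of 2.72 ± 0.59 log2 (adjusted p 0.136). The 1700084C06Rik row, on the strand of the interferon receptor kinase gene Tyk2, stood at -0.10 ± 0.13 log2 with the combination. That row also shares 192 exon bases head to head with Raver1 and 192 with Gm38431, so its counts cannot be split between these genes. The list was written with earlier results of these data known, so its counts are no independent support.

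The other calls of the combination and of EZM8266 lay at pairs of differing kind. The Cyren row (strand of Tmem140) rose by 0.90 ± 0.15 log2 with EZM8266 (adjusted p 0.0351) and by 0.94 ± 0.16 with the combination (0.0281), with 0.29 ± 0.16 for olaparib (0.999). The EZM8266 call ended without either DMSO library (0.280 and 0.361), olaparib replicate 1 (0.0571), EZM8266 replicate 2 (0.218) or either combination library (0.0655 and 0.0805). The combination call ended without either DMSO library (0.209 and 0.182) or either combination library (0.255 and 0.182).

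Smpd3, the neutral sphingomyelinase gene, meets the arginine methyltransferase gene Prmt7 over 247 bases at chr8:106252548-106252794, and the stretch runs exactly between the gene ends printed above, with no coding base. The Prmt7 row (strand of Smpd3) held 104 and 88.6 CPM in the olaparib, 212 and 203 in the EZM8266, 182 and 157 in the combination and 119 and 109 in the DMSO libraries. Olaparib lies below DMSO and both groups with EZM8266 lie above it. The row rose by 0.87 ± 0.15 log2 with EZM8266 (adjusted p 0.0351), with 0.58 ± 0.15 for the combination (0.285) and -0.23 ± 0.15 for olaparib (0.999). Leaving out any of the 8 libraries ended the call, at adjusted p from 0.0562 to 0.495. The Smpd3 row, on the strand of Prmt7, held 28.8 and 22.9 CPM in the EZM8266 and 29.4 and 25.9 in the DMSO libraries, so the groups overlap there.

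Ica1l, related to an islet cell autoantigen, meets Fam117b over 473 exon bases at chr1:59982490-59983579, with no coding base of either. The Fam117b row (strand of Ica1l) held 8.83 and 8.94 CPM in the olaparib, 31.02 and 35.8 in the EZM8266, 19.1 and 14.6 in the combination and 3.92 and 6.79 in the DMSO libraries. The EZM8266 libraries are the highest and all treated groups lie above DMSO, which had 4 and 11 counts. The row rose by 2.55 ± 0.41 log2 with EZM8266 (adjusted p 0.0254), with 1.57 ± 0.45 for the combination (0.386). The call ended without either DMSO library (0.210 and 0.138) or EZM8266 replicate 2 (0.115). The Ica1l row, on the strand of Fam117b, held 295 and 382 CPM in the EZM8266 and 274 and 293 in the DMSO libraries.

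The Gm27177 row gave the largest log2 fold change among the called rows. It shares 1700 exon bases with Entpd4b, a nucleotide phosphatase gene, tail to tail, and a further 301 bases head to head with Loxl2, a collagen cross-linking oxidase, so the strand carries both genes and its counts cannot be split between them. The row held 19.1 and 20.3 CPM in the olaparib, 113 and 75.6 in the EZM8266, 20.1 and 23.4 in the combination and 5.88 and 12.97 in the DMSO libraries. The EZM8266 libraries stand apart from the other 6, and the combination stands close to olaparib. The row rose by 3.23 ± 0.33 log2 with EZM8266 (adjusted p 0.000637), with 1.11 ± 0.39 for the combination (0.737). It passed in all 16 alternative settings. The combination differed from EZM8266 alone by -2.12 ± 0.31 log2, which missed the edgeR threshold (adjusted p 0.0801) and was called by DESeq2 (0.00562). The interaction of both compounds, the departure of the combination from the sum of the single effects, was -3.09 ± 0.49 log2 (edgeR adjusted p 0.196, DESeq2 0.0145). The Entpd4b row, on the strand of Gm27177, held 0 counts in all 8 libraries. For counting error alone, that allows up to 1.78 to 3.08 CPM per library (3 counts). Entpd4b has a near-identical neighbour copy, Entpd4, and fragments that fit both may not have been counted. Counts there are therefore uncertain, and 0 counts set no upper limit on the RNA.

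Gm20186 and Gm26809 are both long noncoding RNA genes and share 855 exon bases at chr6:18845910-18846764. The Gm26809 row (strand of Gm20186) held 976 and 1167 CPM in the olaparib, 1588 and 1963 in the EZM8266, 1744 and 1813 in the combination and 1090.0 and 995 in the DMSO libraries. Every library with EZM8266 lies above every library without it. The row rose by 0.77 ± 0.13 log2 with EZM8266 (adjusted p 0.0388) and by 0.77 ± 0.13 with the combination (0.0379). The EZM8266 call ended without either DMSO library (0.118 and 0.464), olaparib replicate 1 (0.0520), EZM8266 replicate 2 (0.144) or either combination library (0.0613 and 0.0805). The combination call ended without either DMSO library (0.110 and 0.331) or either combination library (0.201 and 0.303). The Gm20186 row, on the strand of Gm26809, held 2 to 5 counts.

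**Figure D4:**
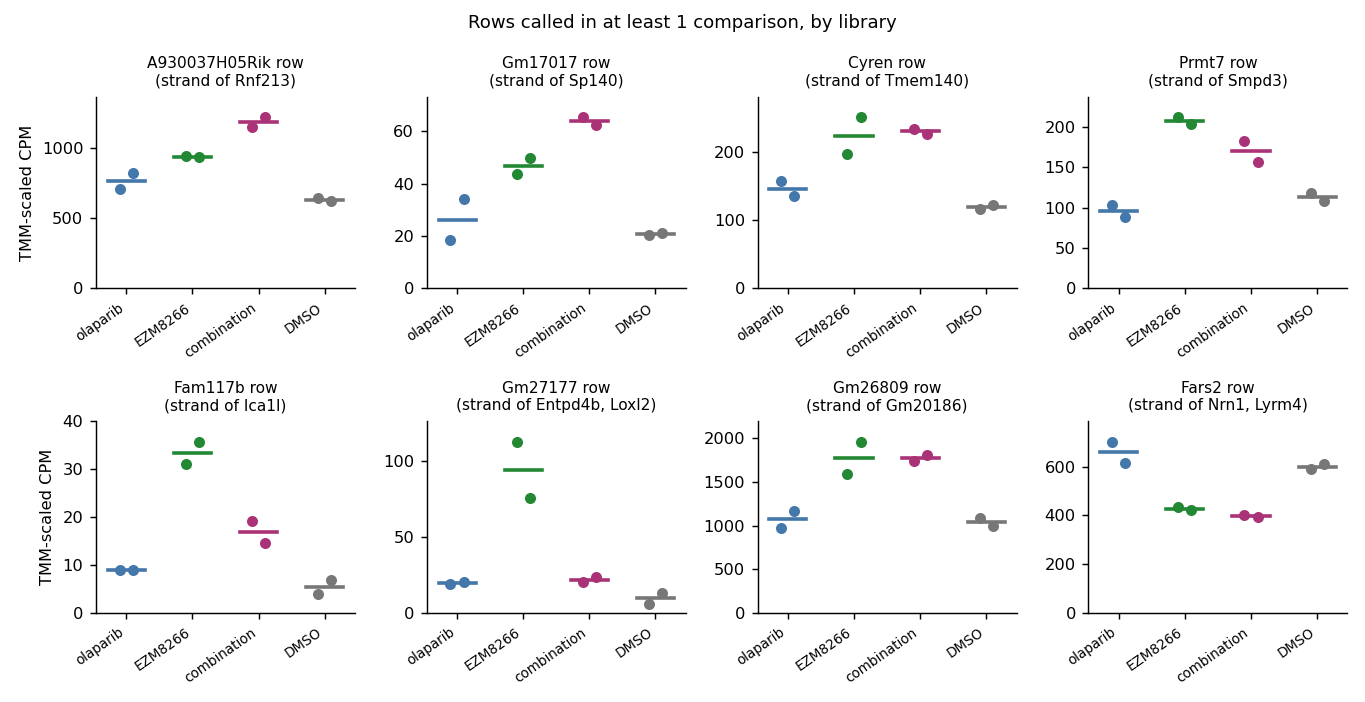
TMM-scaled CPM of each of the 8 rows called in at least 1 comparison, by library, with points for the 2 libraries of a group and a bar for their mean. Groups run from olaparib, EZM8266 and the combination to DMSO, and each title names the row and the genes on the strand it was counted on. The A930037H05Rik row is highest in the combination, at 1153 and 1221 CPM, and the Gm27177 row in EZM8266, at 113 and 75.6 CPM.

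Olaparib alone gave no tail-to-tail call against DMSO. The edgeR test called 0 of 1496 rows where 0% of all rows were called, with 23 tail-to-tail rows (1.54%) and 1.83% of all rows at an unadjusted p under 0.05, and DESeq2 called 0. Among rows with at least 50 mean counts and no overlap with DMSO, the largest change was at the Gm16066 row (strand of Kmt5b, a methyltransferase of histone H4 lysine 20). This row also shares 74 exon bases head to head with Chka, so its counts cannot be split between these genes. It held 39.7 and 55.3 CPM in the olaparib, 57.5 and 74.6 in the EZM8266, 53.4 and 63.4 in the combination and 31.3 and 29.6 in the DMSO libraries. Its log2 fold change was 0.64 ± 0.25 for olaparib (adjusted p 0.999), 1.11 ± 0.25 for EZM8266 (0.176) and 0.94 ± 0.25 for the combination (0.335). At the opposite extreme, the Ppp1ca row (strand of Rad9a, a DNA damage checkpoint clamp gene) and the Pik3c2a row (strand of the antisense gene Gm44777) both stood at -0.50 ± 0.22 (0.999) for olaparib. The Ppp1ca row averaged 63.25 counts, beside 2706 in the Rad9a row on the strand of Ppp1ca. How much of the Ppp1ca row is Ppp1ca message counted on the unexpected strand was not tested.

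With the combination set against olaparib, which shares olaparib between the groups, the Fars2 row fell. It lies on the strand of Nrn1, the neurite growth factor neuritin, over 501 exon bases at chr13:36725780-36726280 with no coding base, and head to head over a further 115 bases on the strand of Lyrm4, a factor of iron-sulfur cluster assembly. The row held 403 and 393 CPM in the combination and 703 and 613 in the olaparib libraries, beside 434 and 421 in the EZM8266 and 592 and 609 in the DMSO libraries. All 4 libraries with EZM8266 lie below all 4 without it. The fold change was -0.73 ± 0.12 log2 (adjusted p 0.0396), the only tail-to-tail call that edgeR made in that comparison, where 0.0941% of all rows were called and 0.0314% were called lower. At an unadjusted p under 0.05 there were 49 tail-to-tail rows, or 3.28% against 3.81% of all rows. DESeq2 called 3 tail-to-tail rows, where it called 8 over all rows. The 3 were the Fars2 row (adjusted p 0.00504), the Gm26809 row at 0.73 log2 (0.00504) and the A930037H05Rik row at 0.63 log2 (0.0147). The call ended with RLE scaling (0.0510) or a filter of 1 CPM in 4 libraries (0.0772), and without either DMSO library (0.0652 and 0.0729), either olaparib library (0.636 and 0.0946) or either combination library (0.522 and 0.687). The count of calls was 3 without EZM8266 replicate 1 and 4 without EZM8266 replicate 2. Against DMSO the row stood at -0.59 ± 0.12 with the combination (adjusted p 0.0819) and -0.49 ± 0.12 with EZM8266 (0.228).

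The combination against EZM8266 and the interaction gave 0 edgeR calls among the 1496 rows, where 0% of all rows were called in both. At an unadjusted p under 0.05 19 tail-to-tail rows passed for the first, or 1.27% of them against 1.54% of all rows. For the interaction 17 passed, or 1.14% against 1.61%. DESeq2 called 1 tail-to-tail row in each, the Gm27177 row, where it called 1 over all rows.

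The rows with the lowest fold changes and no overlap with DMSO did not pass the test, and Nme7 and Sox4 are 2 of them. The Nme7 row (strand of Atp1b1, a subunit of the sodium pump) held 609 and 634 CPM in the EZM8266, 647 and 535 in the combination and 813 and 883 in the DMSO libraries, with -0.45 ± 0.13 (adjusted p 0.432) and -0.52 ± 0.13 log2 (0.222). This row also shares 189 exon bases head to head with Blzf1, so its counts cannot be split between these genes. The Sox4 row (strand of the long noncoding RNA gene Gm26735) held 49.2 and 55.7 CPM in the EZM8266, 47.3 and 51.7 in the combination and 72.5 and 84.6 in the DMSO libraries, with -0.59 ± 0.20 (0.739) and -0.67 ± 0.21 log2 (0.544). Its partner row Gm26735, on the strand of the transcription factor gene Sox4, held 2831 and 3369 CPM in the EZM8266, 3144 and 3113 in the combination and 3796 and 3411 in the DMSO libraries, with -0.22 ± 0.12 (0.854) and -0.20 ± 0.12 log2 (0.973). The Sox4 row holds 1.82% of the counts of its pair, close to the 1.04% to 1.68% of the Rmrp measure, and the part in it of Sox4 message counted on the unexpected strand was not tested. In each of these rows, both EZM8266 libraries and both combination libraries lie below both DMSO libraries.

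The pairs also hold genes of pathways that the compounds act on, and edgeR called none of their rows. Of 94 DNA repair and PARP genes listed, 20 lie in a tail-to-tail pair with a tested row. edgeR and DESeq2 called 0 of the 20 rows in any treatment against DMSO. At an unadjusted p under 0.05, 0, 2 and 0 rows passed for olaparib, EZM8266 and the combination. Over all rows the shares were 1.83%, 5.72% and 4.89%. The median log2 fold changes of the 20 rows were 0.05, 0.11 and 0.08. The Pip4p1 row (strand of Apex1, the base excision repair endonuclease) stood at 0.03, -0.08 and -0.17 and the Zfp276 row (strand of Fanca, a Fanconi anemia core protein) at 0.16, 0.51 and 0.17.

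Of 86 listed genes of histone H3 lysine 9 methylation and chromatin, 12 have a tested row. No row was called by edgeR or DESeq2 in any treatment, and none passed at an unadjusted p under 0.05. Over all rows 1.83%, 5.72% and 4.89% passed for olaparib, EZM8266 and the combination. The Gm14820 row, on the strand of Suv39h1, a trimethylase of lysine 9, held 355 and 347 CPM in the EZM8266, 362 and 358 in the combination and 333 and 345 in the DMSO libraries. Its fold changes were 0.05 ± 0.12 and 0.08 ± 0.12 log2. The row on the strand of Setdb1 (Cers2) stood at -0.02 and -0.10.

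Matrix and adhesion genes held the widest range among the listed rows for EZM8266. Of their 7 tested rows edgeR and DESeq2 called 0 with EZM8266 and with the combination. At an unadjusted p under 0.05, 3 passed above 0 and 1 below 0 in each, where 5.72% and 4.89% of all rows passed. The list was chosen with earlier results of these data known. The BC029722 row, on the strand of the metalloproteinase gene Mmp24, held 30 and 20 counts in the EZM8266, 25 and 22 in the combination and 5 and 7 in the DMSO libraries. Its fold changes were 2.20 ± 0.44 (adjusted p 0.0929) and 2.33 ± 0.45 log2 (0.0664). The Gm4673 row (strand of Lsr, a receptor of tricellular junctions) stood at 0.59 ± 0.14 (0.188) and 0.63 ± 0.14 (0.136), and the Gm15657 row (strand of Heg1, a junctional membrane protein) at 0.53 ± 0.13 (0.241) and 0.59 ± 0.13 (0.136). The Gm4524 row (strand of P3h2, a collagen prolyl hydroxylase) stood at -0.39 ± 0.12 (0.683) and -0.38 ± 0.13 (0.675).

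Genes of RNA 3′ end processing and of splicing gave 11 and 7 tested rows. edgeR and DESeq2 called 0 of them in any treatment against DMSO. For EZM8266, 2 and 0 rows passed at an unadjusted p under 0.05, where 5.72% of all rows did. For olaparib and the combination none passed, where 1.83% and 4.89% of all rows did. The Gm26944 row, on the strand of the termination factor gene Pcf11, stood at 0.15, 0.52 and 0.14 log2 for olaparib, EZM8266 and the combination. Another row on the strand of Pcf11, 6430511E19Rik, averaged 11.6 counts and had the opposite sign, at -0.09, -1.05 and -0.14. For EZM8266 the SE was 0.23 in the Gm26944 row (edgeR adjusted p 0.852) and 0.54 in the 6430511E19Rik row (0.854). The Lnx1 row, on the strand of the poly(A) factor gene Fip1l1, stood at 0.22, 0.51 and 0.16. Cell cycle and replication gave 16 tested rows, with 0 called and medians of 0.09, 0.12 and -0.01. The LTO1 row, on the strand of the cyclin gene Ccnd1, held 2917 and 3168 CPM in the EZM8266, 3031 and 2892 in the combination and 2517 and 2309.5 in the DMSO libraries, at 0.33 ± 0.11 (adjusted p 0.721) and 0.30 ± 0.11 log2 (0.818). Mitochondrial energy genes gave 11 tested rows, with 0 called and medians of -0.02, 0.01 and -0.02. In both lists DESeq2 called 0 rows, and 0, 2 and 1 cell cycle rows and no mitochondrial row passed at an unadjusted p under 0.05. Over all rows the shares were 1.83%, 5.72% and 4.89%.

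A list of pairs known as convergent and overlapping gave 12 tested rows, of which 2 were called with EZM8266 and 1 with the combination. Over all rows tested, edgeR called 0.204% and 0.219%. The calls in the list are the Prmt7 and Cyren rows already described, which earlier results of these data had placed in the list. The Thra and Nr1d1 pair, a thyroid hormone receptor and a clock repressor, averaged 73.9 counts in the Nr1d1 row and 73.8 in the Thra row. The Nr1d1 row (strand of Thra) stood at 0.08 log2 for EZM8266 and 0.24 for the combination, and the Thra row (strand of Nr1d1) at 0.09 and 0.13. The Nudt6 row, on the strand of Fgf2, held 16 and 13 counts in the EZM8266, 13 and 17 in the combination and 5 and 7 in the DMSO libraries. Its fold changes were 1.43 ± 0.54 (edgeR adjusted p 0.797) and 1.68 ± 0.54 log2 (0.617), and 1.02 ± 0.56 with olaparib (0.999).

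**Figure D5:**
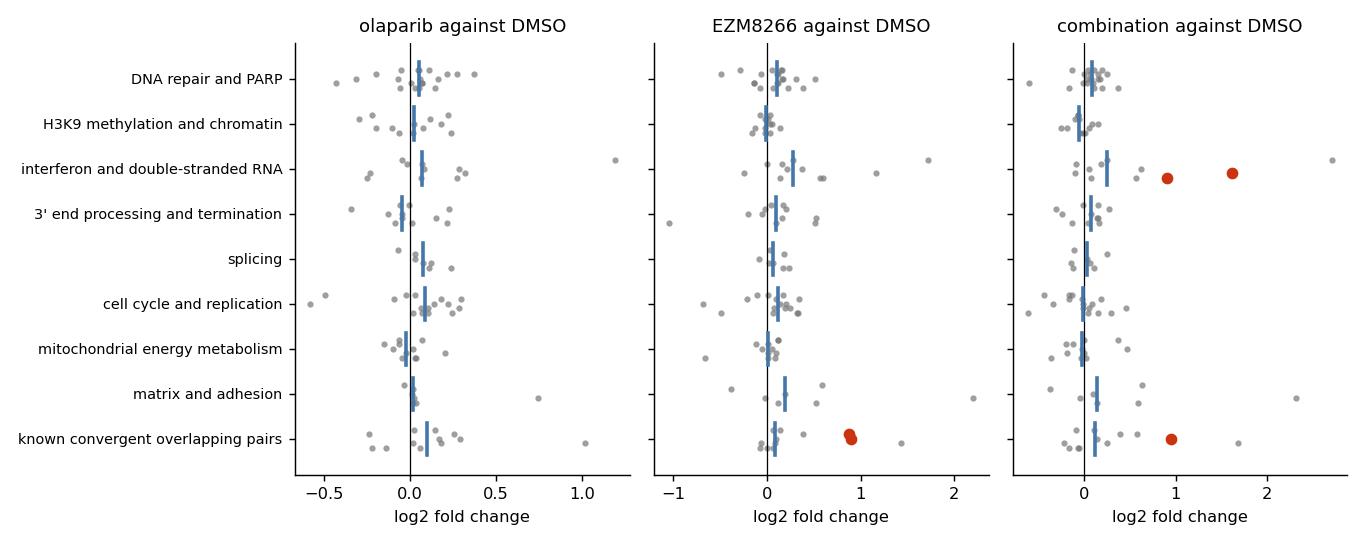
Log2 fold change of the tested tail-to-tail rows on the strand of each listed gene, with a panel per treatment, set against DMSO. Red points are called at an adjusted p under 0.05, blue bars are the median of a list, and the 2 interferon rows called with the combination are A930037H05Rik and Gm17017 at 0.91 and 1.61.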

How the data were processed

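The authors deposited raw counts, whole numbers of fragments for each gene. HISAT2 2.1.0, Subread 1.6.2, FastQC 0.11.8, MultiQC 1.7 and build mm10 were used, per the submitters' processing notes. The pairs of reads were counted by featureCounts over GENCODE M18 exons at strand setting 1, per the file headers, and a fragment counted for every gene it overlapped. So 149 of the 1668 rows share exon with a same-strand row, and 411 have 2 or more opposite-strand partners. Symbols came from GENCODE M21, which named 54079 of 54146 rows.

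The 8 libraries entered 1 fit of edgeR 4.0.16 in R 4.3.3 (quasi-likelihood F test, TMM scaling, 4 group means). filterByExpr (at least 10 counts in a library, 15 in total) left out 172 of the 1668 rows. Benjamini-Hochberg adjustment ran over all 6379 rows tested, with a threshold of 0.05. The balance was tested with limma 3.58.1 on log2 CPM with a prior count of 2, over 1257 pairs. All tests are two-sided, and the fit was tested on simulated data. Named rows were the called rows, in each treatment the 4 highest and 4 lowest with at least 50 counts and no overlap with DMSO, the 8 highest per kb with at least 100 counts, up to 4 per list, the 5 longest overlaps, the 5 pairs with the most counts and the pairs with changed balance. Listed genes named beyond that were chosen after their values were seen. Members and lists were chosen with earlier results of these data known. Alternatives were DESeq2 1.42.0 and the settings given at the end. A few rows that this rule names are not reported here.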

Additional observations from a re-analysis of the deposited data

How the results depend on the processing

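The olaparib count stayed at 0 tail-to-tail rows in every alternative run. For EZM8266 against DMSO the count of 5 was 8 with no filter on low counts, 1 with only the groups compared in the fit, 1 to 5 with single libraries left out and 1 when DMSO replicate 1 was left out along with olaparib replicate 2, a choice based on the satellite repeat rows in which earlier results found both rich. The count of 4 for the combination was 0 to 5 with single libraries left out and 0 without that pair of libraries. For the combination against olaparib the count of 1 was 3 with DESeq2, 0 with RLE scaling, 5 with no filter, 4 with only the groups compared, 0 with rows of a single opposite-strand partner, 0 to 4 with single libraries left out and 0 without the pair. The count of 0 for the combination against EZM8266, and for the interaction, was 1 with DESeq2, no filter or a filter of 1 CPM in 4 libraries, and 0 to 1 with single libraries left out. Over the 6 comparisons, the 1 pair of changed balance became 0 to 15 with single libraries left out, 2 in pairs with no other partner and 0 without the pair of libraries. The mean share of counts in these rows, 28.04%, was 20.2% over rows with a single partner and 24.1% with at least 200 shared bases. No call reversed. The interaction was not run with only the groups compared, since it needs all 4.

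Replicate numbers did not pair the libraries: same-number deviations correlated at 0.29, 0.22 and 0.29 among treated groups and -0.31, -0.32 and -0.15 with DMSO. With a replicate block the counts were 3 for EZM8266, 4 for the combination, 0 for the combination against olaparib and 0 for the balance. The block ended the edgeR calls of the Cyren (adjusted p 0.0637) and Gm26809 (0.0635) rows with EZM8266 and of the Fars2 row (0.0872). With DMSO numbers crossed, a choice made after seeing the data, the block gave 18, 15, 9, 1 and 1 for EZM8266, the combination, the combination against olaparib, the combination against EZM8266 and the interaction. The alternative of pairs with no other partner and that of the balance without that pair of libraries were also added after seeing the data. Depth left 172 of the 1668 rows untested, and 2 libraries a group limit every call.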
